A study of Mus musculus with 6 samples.

Results

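Genes of the epithelial-mesenchymal transition (EMT) were examined in untreated CT26 tumors and in residual CT26 tumors after incomplete radiofrequency ablation (iRFA). The rule took the genes whose GENCODE symbol is Cdh1, Cdh2, Epcam, Vim, Zeb1, Zeb2, Snai1, Snai2, Twist1 or Twist2, which gave 10 of the 32110 genes listed for each library. The study set 3 untreated tumors against 3 tumors sampled on day 3 after iRFA, with 1 RNA-seq library for each tumor. All 6 were CT26 tumors, a colon carcinoma line of BALB/c origin, implanted in the right flank of wild type male BALB/c mice, and treatment began once a tumor measured about 0.8 cm. The untreated mice received no treatment, whereas in iRFA the electrode tip was placed midway along the tumor and held at a target of 70 °C so that only part of it became necrotic. The age of the mice and the day on which untreated tumors were taken are not given in the sources used here. Nothing states that the 3 libraries of a group came from separate experiments, so p-values measure only the spread between these libraries.

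EMT is the process by which epithelial cells give up cell-cell junctions and take on a motile, mesenchymal form, and it is studied in carcinoma because it accompanies invasion. Zinc finger factors of the SNAI and ZEB families and basic helix-loop-helix factors of the TWIST family drive it, and they repress epithelial genes through short DNA motifs called E-boxes. E-cadherin (Cdh1) and Epcam are adhesion molecules of epithelial cells, while N-cadherin (Cdh2) and vimentin (Vim) mark mesenchymal cells among others. Fibroblasts, mesothelial cells and macrophages also carry some of these transcripts, so a bulk tumor holds the sum over its cells, and in these samples fewer cells of a type and less RNA per cell cannot be told apart.

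Epcam differed most between libraries and Snai1 was the one gene of the 10 whose groups did not overlap, so the 250 bases before their start sites are shown with the E-boxes CACCTG and CAGGTG in capitals. These letters are 1 motif read on either strand, and CACCTG is the form through which SNAI1 and ZEB1 are known to repress Cdh1. The sequences are those of RefSeq on GRCm38.p6, on the plus strand of chr17:87635729-87635978 for Epcam and of chr2:167537945-167538194 for Snai1.
Epcam promoter: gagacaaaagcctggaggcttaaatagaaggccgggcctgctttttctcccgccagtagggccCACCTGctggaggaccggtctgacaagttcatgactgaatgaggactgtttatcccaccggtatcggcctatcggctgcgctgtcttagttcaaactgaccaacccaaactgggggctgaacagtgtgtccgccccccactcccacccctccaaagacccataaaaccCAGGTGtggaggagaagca
Snai1 promoter: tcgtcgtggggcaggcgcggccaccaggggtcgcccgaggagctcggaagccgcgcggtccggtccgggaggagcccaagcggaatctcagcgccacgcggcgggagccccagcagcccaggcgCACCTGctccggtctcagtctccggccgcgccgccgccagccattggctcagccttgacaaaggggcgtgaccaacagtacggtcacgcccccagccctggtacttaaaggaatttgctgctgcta
The Epcam window holds 2 such E-boxes, whose first bases lie at −187 and −19 from the start site, and the Snai1 window holds 1 at −126. RefSeq promoters were matched for 6 of the 10 genes, and Cdh1, Cdh2, Zeb1 and Snai2 were not among them, so the Cdh1 promoter was not examined. The matched genes had 9 windows in all, several of them for Zeb2. Of these windows 2 hold the motif, beside 17.2% of the 32851 promoter windows examined, and 2.1% of those hold it at least 2 times. The 2 windows are the ones shown, and the windows of Vim, Zeb2, Twist1 and Twist2 do not hold it. A match is a description of these letters and says nothing about binding.

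All 10 genes are protein-coding in GENCODE release 21 on GRCm38. Cdh1 lies on chromosome 8 (106603351 to 106670246, plus strand), Cdh2 on chromosome 18 (16588877 to 16809246, minus), Epcam on chromosome 17 (87635979 to 87651129, plus) and Vim on chromosome 2 (13573927 to 13582826, plus). Snai1 and Zeb2 are also on chromosome 2 (167538195 to 167542814, plus, and 44983632 to 45117395, minus), Zeb1 is on chromosome 18 (5591860 to 5775467, plus) and Snai2 on chromosome 16 (14705852 to 14709385, plus). Twist1 lies on chromosome 12 (33957671 to 33959829, plus) and Twist2 on chromosome 1 (91801461 to 91848028, plus). The values are FPKM of whole genes, fragments corrected for transcript length and for the size of the library, so levels may be compared between genes. Strand use in counting is not given in the sources used here, so fragments of Zeb2 and of its antisense gene Zeb2os, which was at 1.25 to 1.86 FPKM untreated and 2.83 to 3.86 FPKM after iRFA, may not be told apart. The short opposite-strand RNA Gm27761 within Zeb2 was at 2.43 to 5.14 FPKM. The same holds for Twist2 and its antisense gene Gm29100, at no more than 0.737 FPKM except 3.12 FPKM in iRFA replicate 3.

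The untreated libraries fell apart before any comparison. Over the 15560 genes whose mean reached 0.5 FPKM, untreated replicates 1 and 2 correlated at 0.983 with each other and at 0.801 to 0.83 with the other 4 libraries, while the library labelled as untreated replicate 3 correlated at 0.983 to 0.987 with the iRFA libraries. For 74.1% of these genes both untreated replicates 1 and 2 lay above or both below all 4 other libraries. Whether the label of this library or the origin of untreated replicates 1 and 2 differs from what is stated cannot be told apart from the files, and this bears on every untreated mean and fold change. Each EMT gene is therefore given with and without these libraries, and the ratios within a library are given over all 6 with each value. Without untreated replicates 1 and 2 a single untreated library is left, whose spread is taken to equal that of the iRFA libraries. No counts are given and the absolute depth is unknown. Steps between low values gave depths of 1.00 to 1.10 relative to untreated replicate 1. Only ratios close to equal depth were searched, so a larger difference in depth could not have been seen. Markers of intestinal epithelium summed to 0.403 to 9.59 FPKM over 9 listed genes, and Cdx2, which specifies intestinal epithelium, was listed at 0 in 5 libraries and at 0.023 FPKM in the other. The most abundant of them, Lgals4, Lgr5 and Vil1, had untreated means of 2.43, 2.47 and 1.12 FPKM and iRFA means of 0.336, 0.139 and 0.0576 FPKM. Their sum was 9.59 and 9.54 FPKM in untreated replicates 1 and 2 and no more than 1.11 FPKM in the other 4 libraries.

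The test was that of limma on log2(FPKM + 1), run two-sided over these 15560 genes at an adjusted p of 0.05 (Benjamini-Hochberg), and fold changes on this scale understate those of low genes. All 10 EMT genes passed the filter on low values. Of them 0 passed the threshold, as did 0% of all genes tested. At an unadjusted p under 0.05, Snai1 was higher, beside 7.94% of all genes tested, and Snai2 was lower, beside 6.75%. Snai1 was also the only 1 of the 10 genes to be higher in all 3 iRFA libraries than in any untreated one, beside 11.4% of all genes, and 0 were lower in this way, beside 10.5%. For 9 of the 10 genes, all but Cdh1, untreated replicates 1 and 2 lay on one side of the other 4 libraries. The same split held for 74.1% of all genes. In 7 of the 10 the library labelled as untreated replicate 3 lay inside the range of the iRFA libraries, as for 45.7% of all genes. Without untreated replicate 3, 5 EMT genes were higher and 3 lower after iRFA, beside 33.9% and 30.3% of all genes. Without untreated replicates 1 and 2, 0 of the 10 passed, beside 0.00643% of all genes.

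**Figure D1:**
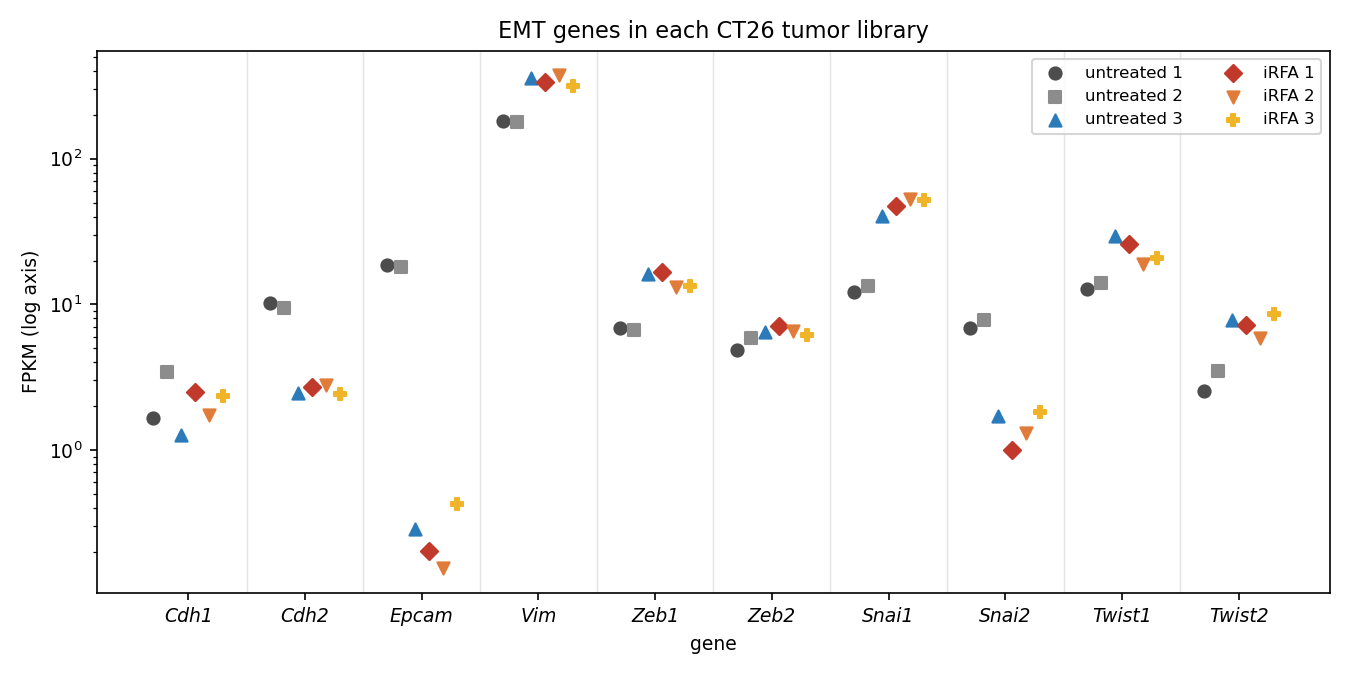
FPKM (log axis) of the 10 EMT genes in each of the 3 untreated and 3 iRFA libraries, with 1 point per library. In 9 genes untreated replicates 1 and 2 stand to one side of the other 4 points, as for 74.1% of all genes tested. Epcam is at 18.6 and 18.1 FPKM in untreated replicates 1 and 2 and at most 0.422 FPKM in the others.

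Of the epithelial adhesion genes, Epcam was near 0 in the iRFA libraries and Cdh1 was not. Epcam, an adhesion molecule on the surface of simple epithelial cells, reached 18.6, 18.1 and 0.286 FPKM in untreated replicates 1 to 3 and at 0.203, 0.154 and 0.422 FPKM in iRFA replicates 1 to 3. Untreated replicates 1 and 2 were thus high and the other 4 libraries close to 0, and the groups overlapped. With all 6 libraries the log2 fold change was −2.64 (standard error 1.09, adjusted p = 0.250 from limma), −3.94 without untreated replicate 3 (standard error 0.11, adjusted p = 8.0e-06) and −0.04 without untreated replicates 1 and 2 (standard error 0.15, adjusted p = 0.962). Untreated replicates 1 and 2 stood above or below the other 4 libraries in 74.1% of all genes. All 8 of 8 listed mesothelial markers were higher in untreated replicates 1 and 2. They summed to 718.5 and 662.6 FPKM there, to 1.76 FPKM in the library labelled as untreated replicate 3 and to 1.16 to 1.26 FPKM after iRFA. Their most abundant members Krt19, Upk3b and Msln had untreated means of 165.6, 82.2 and 66.4 FPKM and iRFA means of 0.0704, 0.0147 and 0.892 FPKM. Muc16, the mesothelial mucin CA125, is listed at 0 in all 4 libraries other than untreated replicates 1 and 2. The part of these cells in the result was not tested.

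E-cadherin (Cdh1), the adhesion molecule of epithelial junctions whose loss defines EMT, was at 1.66, 3.42 and 1.26 FPKM in untreated replicates 1 to 3. In iRFA replicates 1 to 3 it was at 2.50, 1.74 and 2.36 FPKM. Its highest value was in untreated replicate 2 and its lowest in the library labelled as untreated replicate 3, so the iRFA libraries lay inside the untreated range. Its log2 fold change was 0.09 (standard error 0.28, adjusted p = 0.822 from limma), −0.11 without untreated replicate 3 (standard error 0.24, adjusted p = 0.717) and 0.49 without untreated replicates 1 and 2 (standard error 0.18, adjusted p = 0.744). Keratinocyte markers were also highest in untreated replicate 2, with a sum over 14 genes of 333.6 FPKM beside 81.1 FPKM in untreated replicate 1, 9.81 FPKM in the library labelled as untreated replicate 3 and 7.53 to 10.98 FPKM after iRFA. Elsewhere the markers did not follow Cdh1, which was lower in untreated replicate 1 (1.66 FPKM) than in all 3 iRFA libraries (1.74 to 2.50 FPKM). Of the most abundant genes in this marker list, the basal keratins Krt14 and Krt5 were at 197.5 and 65.7 FPKM in untreated replicate 2 and at 65.2 and 0.875 FPKM in untreated replicate 1, and in no other library above 0.95 and 1.21 FPKM. Sfn, a 14-3-3 protein of epidermis, was at 21.4 FPKM in untreated replicate 2 and at 4.86 to 6.79 FPKM elsewhere, and the part of skin in the Cdh1 values was not tested.

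N-cadherin (Cdh2), the cadherin of mesenchymal and neural cells that replaces E-cadherin in EMT, was at 10.1, 9.43 and 2.46 FPKM in untreated replicates 1 to 3. It was at 2.70, 2.79 and 2.43 FPKM in iRFA replicates 1 to 3. Untreated replicates 1 and 2 were high and the library labelled as untreated replicate 3 lay among the iRFA libraries. In limma the log2 fold change was −1.02 (standard error 0.47, adjusted p = 0.250 from limma), −1.57 without untreated replicate 3 (standard error 0.08, adjusted p = 4.4e-05) and 0.07 without untreated replicates 1 and 2 (standard error 0.11, adjusted p = 0.905).

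Vimentin (Vim), the intermediate filament protein of mesenchymal cells and leukocytes, was the most abundant of the 10 genes in all libraries. It was at 182.8, 180.1 and 356.8 FPKM in untreated replicates 1 to 3 and at 338.9, 373.7 and 314.0 FPKM in iRFA replicates 1 to 3. Its level was low in untreated replicates 1 and 2, the opposite of Cdh2, and the groups overlapped through the library labelled as untreated replicate 3. On the log2 scale the change was 0.58 (standard error 0.29, adjusted p = 0.251 from limma), 0.91 without untreated replicate 3 (standard error 0.08, adjusted p = 3.4e-04) and −0.06 without untreated replicates 1 and 2 (standard error 0.13, adjusted p = 0.920). Macrophage markers were also lowest in untreated replicates 1 and 2, but unlike Vim they did not overlap between groups. Their sum over 10 genes was 1544 and 1531 FPKM in untreated replicates 1 and 2, 3032 FPKM in the library labelled as untreated replicate 3 and 3351 to 3735 FPKM after iRFA. All 10 of 10 were higher in the 3 iRFA libraries than in any untreated one, beside 11.4% of all genes. Lyz2 was at 1675 ± 117 FPKM after iRFA and 801.6 ± 542 FPKM untreated, C1qa at 642.4 ± 43.5 and 420.6 ± 96.4 FPKM and C1qb at 622.8 ± 34.4 and 397.9 ± 98.3 FPKM (SD, n = 3). Without untreated replicates 1 and 2 the median log2 fold change of the 10 markers was 0.25, and the part of macrophages in the Vim values was not tested.

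Among the transcription factors, Snai1 and Snai2 had log2 fold changes of opposite sign. Snai1, which encodes Snail, a repressor of E-cadherin, was at 12.2, 13.3 and 40.4 FPKM in untreated replicates 1 to 3. It was at 47.4, 52.7 and 52.5 FPKM in iRFA replicates 1 to 3, so all iRFA libraries lay above all untreated ones. This gave a log2 fold change of 1.39 (standard error 0.45, unadjusted p = 0.0232, adjusted p = 0.250 from limma) and 1.92 without untreated replicate 3 (standard error 0.07, adjusted p = 2.0e-05). It was 0.32 without untreated replicates 1 and 2 (standard error 0.09), where a single untreated library is left. The macrophage markers given with Vim were also higher without overlap, 10 of 10 beside 11.4% of all genes. They summed to 1544, 1531 and 3032 FPKM in untreated replicates 1 to 3 and to 3351 to 3735 FPKM after iRFA. Their median log2 fold change was 0.69, beside 1.39 for Snai1. The part of macrophages in the Snai1 values was not tested.

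Snai2 encodes Slug, which is expressed by neural crest, fibroblasts and basal epithelial cells. It was at 6.90, 7.77 and 1.71 FPKM in untreated replicates 1 to 3 and at 1.01, 1.31 and 1.83 FPKM in iRFA replicates 1 to 3. Untreated replicates 1 and 2 were high and the library labelled as untreated replicate 3 lay inside the iRFA range. Over the 6 libraries its log2 fold change was −1.28 (standard error 0.48, unadjusted p = 0.0380, adjusted p = 0.250 from limma), −1.82 without untreated replicate 3 (standard error 0.16, adjusted p = 2.8e-04) and −0.20 without untreated replicates 1 and 2 (standard error 0.22, adjusted p = 0.860). Untreated replicates 1 and 2 stood apart in 74.1% of all genes, and fibroblast markers were also highest in sum there. Over 14 genes they summed to 3856 and 4485 FPKM in untreated replicates 1 and 2, 1186 FPKM in the library labelled as untreated replicate 3 and 1044 to 1412 FPKM after iRFA, with 0 of them at 0 in any library. Of the 14, 12 had a negative log2 fold change, and the most abundant were Col1a1 and Col3a1, at −2.64 and −1.003, and Col6a1, at 0.13 (standard errors 1.26, 0.46 and 0.16). The part of fibroblasts in the Snai2 values was not tested.

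Zeb1, a zinc finger repressor of E-cadherin that sustains the mesenchymal state, was at 6.89, 6.72 and 16.0 FPKM in untreated replicates 1 to 3. In iRFA replicates 1 to 3 it was at 16.8, 13.1 and 13.3 FPKM. The low libraries were again untreated replicates 1 and 2, and the groups overlapped. For Zeb1 the log2 fold change was 0.60 (standard error 0.34, adjusted p = 0.273 from limma), 0.97 without untreated replicate 3 (standard error 0.12, adjusted p = 9.2e-04) and −0.15 without untreated replicates 1 and 2 (standard error 0.17, adjusted p = 0.854).

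Zeb2, its paralog, which macrophages and other leukocytes also express, varied least of the 10 genes among the untreated libraries. It was at 4.89, 5.84 and 6.44 FPKM in untreated replicates 1 to 3 and at 7.14, 6.54 and 6.20 FPKM in iRFA replicates 1 to 3, and the groups overlapped. For Zeb2 the log2 fold change was 0.19 (standard error 0.13, adjusted p = 0.330 from limma), 0.26 without untreated replicate 3 (standard error 0.10, adjusted p = 0.0592) and 0.03 without untreated replicates 1 and 2 (standard error 0.11, adjusted p = 0.955). Zeb2 and Cdh1 were the members that passed in none of these fits.

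Twist1, a helix-loop-helix factor of mesoderm and neural crest, was at 12.7, 14.0 and 29.4 FPKM in untreated replicates 1 to 3. It was at 25.9, 19.1 and 20.7 FPKM in iRFA replicates 1 to 3. The library labelled untreated replicate 3 was the highest of all 6, above every iRFA library, and untreated replicates 1 and 2 were the lowest. For Twist1 the log2 fold change was 0.30 (standard error 0.33, adjusted p = 0.524 from limma), 0.66 without untreated replicate 3 (standard error 0.14, adjusted p = 0.00745) and −0.42 without untreated replicates 1 and 2 (standard error 0.19, adjusted p = 0.764).

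Twist2 (also called Dermo1), the paralog of Twist1 expressed in dermal mesenchyme, was at 2.55, 3.50 and 7.80 FPKM in untreated replicates 1 to 3. It was at 7.26, 5.88 and 8.58 FPKM in iRFA replicates 1 to 3, and the groups overlapped. For Twist2 the log2 fold change was 0.65 (standard error 0.36, adjusted p = 0.266 from limma), 1.03 without untreated replicate 3 (standard error 0.17, adjusted p = 0.00351) and −0.11 without untreated replicates 1 and 2 (standard error 0.21, adjusted p = 0.920).

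**Figure D2:**
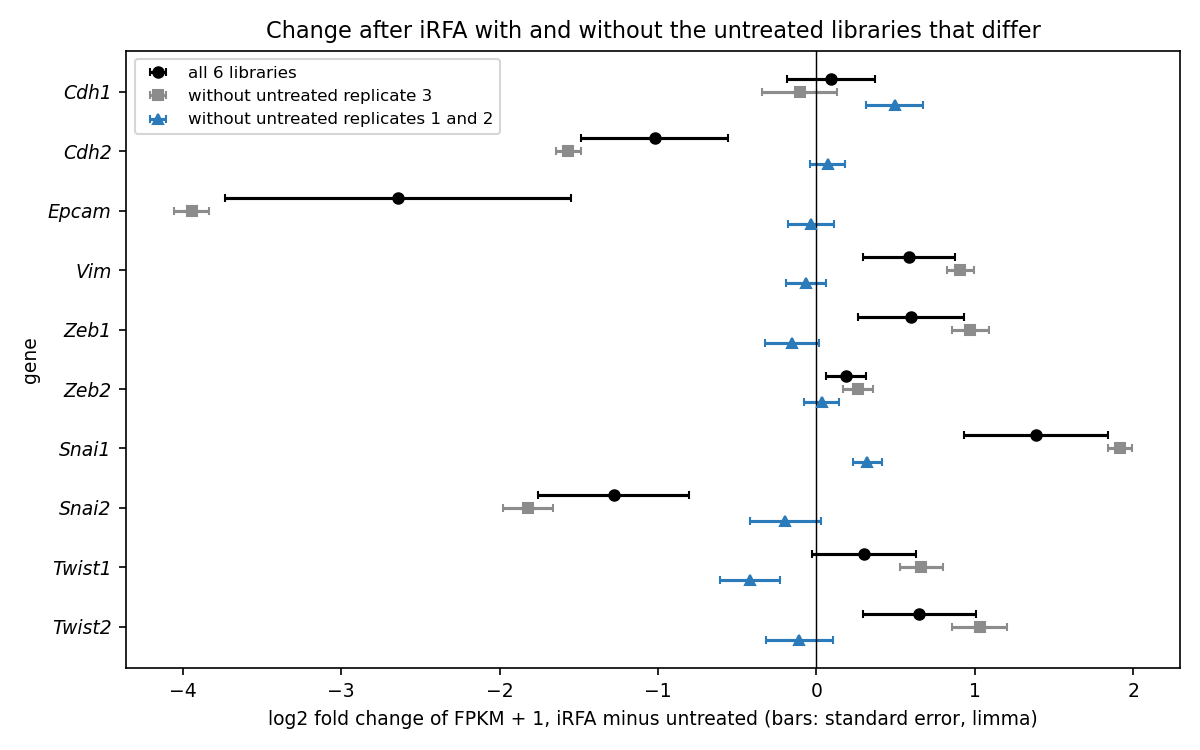
Log2 fold change (iRFA minus untreated, bars are the standard error of limma) of the 10 EMT genes over all 6 libraries, without untreated replicate 3 and without untreated replicates 1 and 2. Epcam stood at −2.64, −3.94 and −0.04 and Snai1 at 1.39, 1.92 and 0.32 in these comparisons.

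Ratios within a library do not depend on the scaling of libraries and were compared by exact two-sided permutation tests, which cannot go below p = 0.1 with 3 libraries against 3. Snai1 made up 63.8%, 63.1% and 96.0% of the sum of Snai1 and Snai2 in untreated replicates 1 to 3 and 97.9%, 97.6% and 96.6% in iRFA replicates 1 to 3 (exact p = 0.1, adjusted p = 0.175 over 7 measures). The share was higher in all 3 iRFA libraries than in any untreated one. Cdh2 made up 86.0%, 73.4% and 66.2% of the sum of Cdh1 and Cdh2 in untreated replicates 1 to 3 and 51.9%, 61.5% and 50.8% in iRFA replicates 1 to 3 (exact p = 0.1, adjusted p = 0.175). Here the library labelled as untreated replicate 3 also lay outside the iRFA range, with the lowest Cdh1 of all libraries. The share of Twist1 in the sum of Twist1 and Twist2 was 79.0 to 83.3% untreated and 70.7 to 78.1% after iRFA (exact p = 0.1, adjusted p = 0.175). The share of Zeb1 in the sum of Zeb1 and Zeb2 was 58.5%, 53.5% and 71.4% in untreated replicates 1 to 3 and 66.7 to 70.2% after iRFA (exact p = 0.4, adjusted p = 0.4).

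**Figure D3:**
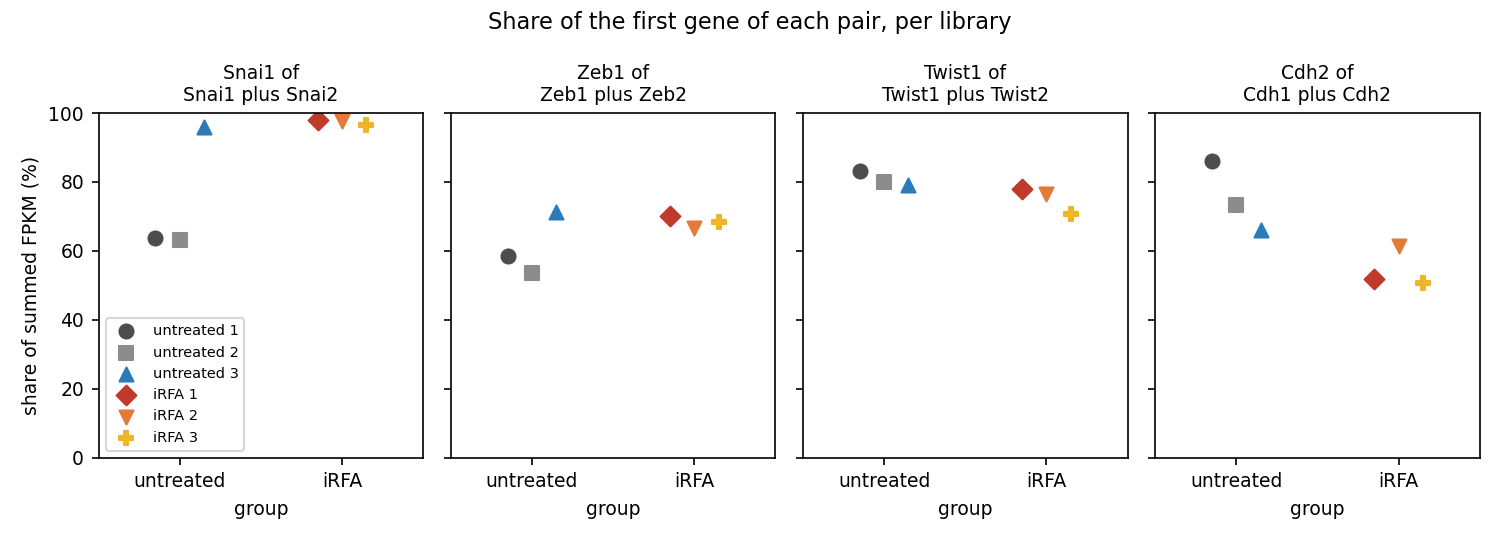
Share (%) of the first gene in the summed FPKM of 4 gene pairs, with 1 point per library, untreated on the left and iRFA on the right of each panel. The groups do not overlap for Snai1, Twist1 and Cdh2, with Cdh2 at 66.2 to 86.0% untreated and 50.8 to 61.5% after iRFA.

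The 6 transcription factors together summed to 46.1, 51.1 and 101.8 FPKM in untreated replicates 1 to 3 and to 105.4, 98.6 and 103.1 FPKM in iRFA replicates 1 to 3 (exact p = 0.2, adjusted p = 0.233). Snai1 alone made up 26.4%, 26.0% and 39.7% of this sum untreated and 44.9%, 53.5% and 50.9% after iRFA (exact p = 0.1, adjusted p = 0.175). The ratio of Vim to Epcam was 9.85 and 9.97 in untreated replicates 1 and 2, 1248 in the library labelled as untreated replicate 3 and 743.9 to 2425 after iRFA (exact p = 0.2, adjusted p = 0.233), and its large values rest on Epcam levels near 0.

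In the iRFA libraries the order of levels was Vim, Snai1, Twist1, Zeb1, Twist2, Zeb2, Cdh2, Cdh1, Snai2 and Epcam, with means from 342.2 ± 30.0 to 0.260 ± 0.143 FPKM (SD, n = 3). Neighbours whose ranges over the 3 libraries overlapped were Twist2 and Zeb2, Cdh2 and Cdh1, and Cdh1 and Snai2. By the means of the untreated libraries the order was Vim, Snai1, Twist1, Epcam, Zeb1, Cdh2, Zeb2, Snai2, Twist2 and Cdh1. Every pair of neighbours overlapped except Vim and Snai1. No single untreated library had this order, because the means join unlike libraries. Epcam was above Snai1 in untreated replicates 1 and 2 (18.6 and 18.1 beside 12.2 and 13.3 FPKM). In the library labelled as untreated replicate 3 it was the lowest of the 10 genes, at 0.286 FPKM. The coefficient of variation ran from 5.93% for Snai1 to 54.9% for Epcam among the iRFA libraries and from 13.7% for Zeb2 to 84.6% for Epcam among the untreated ones. It was larger among the untreated libraries for all 10 genes. Over all genes tested, the median SD of log2(FPKM + 1) was 0.295 among the untreated libraries and 0.096 among the iRFA libraries. The wider untreated spread was therefore not particular to the EMT genes.

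The genes most like each member were found by the root mean square difference between log2(FPKM + 1) profiles over the 6 libraries, each centred on its mean, which is a description of 6 points. This scale understates changes of low genes, so a near gene may differ from the member in level and in fold change. Nearest to Cdh1 were Gm25321, Tgm1 and Klk8 at 0.08, 0.14 and 0.15. Tgm1 encodes a transglutaminase of the cornified envelope and Klk8 a kallikrein protease of skin, and both were highest in untreated replicate 2. Nearest to Epcam were Uchl1, Pdzd2 and Gstm6 at 0.07, 0.09 and 0.09, beside a median of 1.89 over all tested genes.
For Cdh2 they were Gm11266, Npnt and Msi1 at 0.04 to 0.05, with Npnt encoding the matrix protein nephronectin and Msi1 an RNA-binding protein. For Vim they were Ddx27, Ruvbl2 and Scarb1 at 0.03 each, of which Ddx27 and Ruvbl2 encode nuclear helicase-type ATPases and Scarb1 a receptor for high-density lipoprotein. Snai1 was closest to Meiob, Slc2a6 and Il12rb1 at 0.07 to 0.09. Meiob was low, at 0 FPKM in untreated replicates 1 and 2 and at 2.0 to 3.3 FPKM in the other libraries. Snai2 was closest to Adam33, Notch3 and Rom1 at 0.07 to 0.08.
For Zeb1 the nearest genes were Ift57, F8a and Cry1 at 0.02 to 0.05 and for Zeb2 Gas2, Ptcd2 and Nop9 at 0.02 to 0.04. For Twist1 they were Rfxap, Gm38403 and Rbak at 0.07 to 0.08 and for Twist2 Ggta1, Gng2 and Epb41l1 at 0.09 to 0.10. None of the 10 members was among the 3 nearest genes of another.

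Other genes of the programme were taken from lists, and 0 of their genes passed the threshold over all 6 libraries. Counts without untreated replicate 3 stand beside the 33.9% of all genes that were higher and the 30.3% that were lower in that fit. Genes said to be higher or lower without overlap stand beside 11.4% and 10.5% of all genes. Among 28 epithelial junction and surface genes, 17 were tested, with a log2 fold change below 0 for 15 and above 0 for 2, and the median was −1.82 beside 0.02 over all genes tested. The keratins of simple epithelium Krt19, Krt8 and Krt18 led the list, with untreated means of 165.6 ± 144, 160.5 ± 139 and 124.5 ± 108 FPKM and iRFA means of 0.0704 ± 0.0783, 0.0533 ± 0.0268 and 0.0212 ± 0.0189 FPKM (SD, n = 3). They spanned 179.6 to 257.4 FPKM in untreated replicates 1 and 2, and none of them exceeded 0.122 FPKM in the library labelled as untreated replicate 3. Of the 17, 2 were lower without overlap, Krt8 and Tjp1, which encodes the tight junction scaffold ZO-1. The 1 gene higher without overlap was Spint1, an inhibitor of serine proteases. Tjp1 and Spint1 are named after their values were seen. With untreated replicate 3 left out, 12 genes passed as lower and 1 as higher, and without untreated replicates 1 and 2 the median was 0.035 and 0 genes passed. Krt19 is also in the mesothelial list.
Of 18 regulators of epithelial transcription and splicing, 9 were tested, 8 with a negative log2 fold change, and the median was −0.65, which became −1.46 with a pseudocount of 0.1 and −1.69 with a mean of at least 1 FPKM. Klf4, a zinc finger factor of differentiating epithelium, was at 26.7 ± 9.97 FPKM untreated and 15.8 ± 0.380 FPKM after iRFA (SD, n = 3). Foxa2, a forkhead factor of endoderm, stood at 13.7 and 12.9 FPKM in untreated replicates 1 and 2 and is listed at 0 in the other 4 libraries, and Ehf, an epithelial ETS factor, was at 5.19 and 5.38 FPKM there and at no more than 0.0423 FPKM in the others. Without untreated replicate 3, 8 passed as lower and 1 as higher, and without untreated replicates 1 and 2 the median was 0 and 0 passed.

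Mesenchymal genes did not follow Vim as a group. All 28 listed were tested, with a log2 fold change above 0 for 9 and below 0 for 19, and the median was −0.81. S100a4, a calcium-binding protein of motile fibroblasts and leukocytes, was at 80.4, 78.1 and 1034 FPKM in untreated replicates 1 to 3 and at 1159, 1032 and 1020 FPKM in iRFA replicates 1 to 3, a log2 fold change of 2.51 (standard error 1.03). Col1a1, the fibrillar collagen chain, and Sparc, a collagen-binding matricellular protein, went the other way, with untreated means of 1117 ± 911 and 846.9 ± 518 FPKM and iRFA means of 103.0 ± 51.9 and 231.3 ± 28.7 FPKM (SD, n = 3). Without overlap, 3 of the 28 were higher (Axl, Plaur and Itgav) and 2 lower (Mmp14 and Pdgfrb), beside 11.4% and 10.5% of all genes. They are named here after their values were seen. With untreated replicate 3 left out, 9 of 28 passed as higher, a share near that of all genes, and 18 as lower, and without untreated replicates 1 and 2 the median was 0.10 and 0 passed. Of these genes 7 are also in the fibroblast list.

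**Figure D4:**
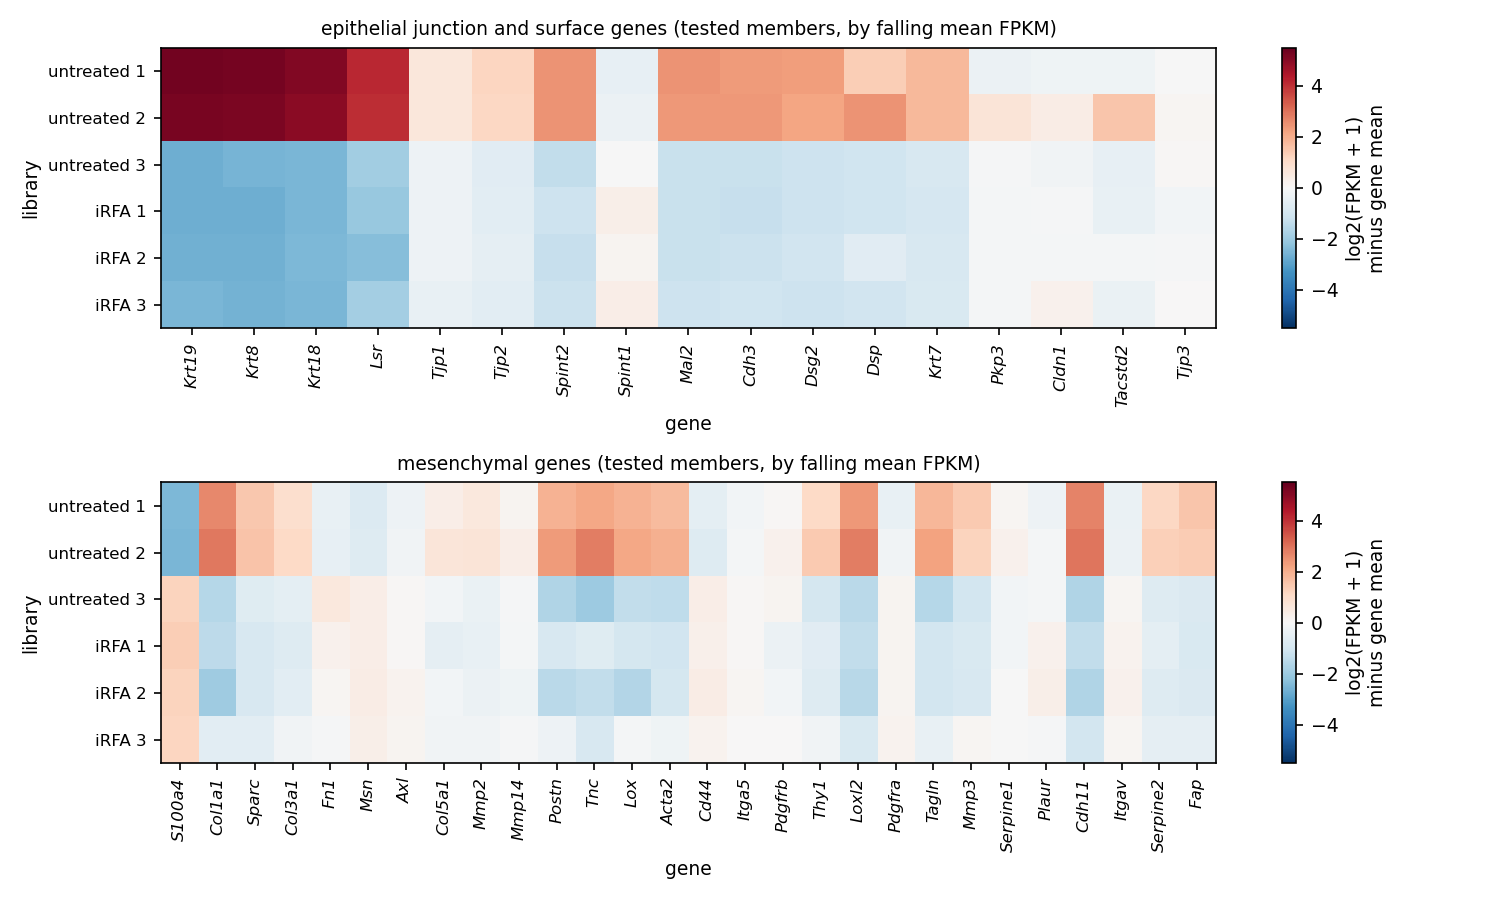
Log2(FPKM + 1) minus the mean of each gene over the 6 libraries (color) for the 17 tested epithelial junction and surface genes (top) and the 28 mesenchymal genes (bottom), with 1 row per library. Untreated replicates 1 and 2 show the high keratins and collagens and low S100a4, and the library labelled as untreated replicate 3 has the colors of the iRFA libraries.

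Of 13 other classical cadherins, 11 are in the files and 5 were tested, 4 with a negative log2 fold change (median −0.21). The direction of this median turned under quantile normalization (0.035). Leaving out untreated replicate 3, 1 passed as higher and 2 as lower (median −0.26), and without untreated replicates 1 and 2, 0 passed (median −0.13). Cdh11, the cadherin of osteoblasts and fibroblasts, stood at 31.7 and 37.5 FPKM in untreated replicates 1 and 2, 0.600 FPKM in the library labelled as untreated replicate 3 and 0.588 to 1.45 FPKM after iRFA. Cdh3, P-cadherin of basal epithelia and mesothelium, stood at 10.98 and 11.3 FPKM in untreated replicates 1 and 2 and at no more than 0.128 FPKM in the others, whereas Cdh5, VE-cadherin of endothelium, was at 10.9 ± 4.25 FPKM untreated and 13.2 ± 2.47 FPKM after iRFA (SD, n = 3). Endothelial markers summed to 39.2 to 45.2 FPKM untreated and 35.0 to 47.4 FPKM after iRFA, with Pecam1 at 8.89 ± 0.139 and 8.87 ± 1.74 FPKM and Cldn5 at 5.29 ± 1.70 and 4.59 ± 0.776 FPKM (SD, n = 3).
Among 6 tested of 7 cadherin-bound proteins, 5 log2 fold changes were negative (median −0.48). Alpha-catenin (Ctnna1), which links cadherins to actin, was at 95.5 ± 11.7 FPKM untreated and 86.9 ± 1.40 FPKM after iRFA. Beta-catenin (Ctnnb1), which binds the cadherin tail, was at 89.6, 71.4 and 58.3 FPKM in untreated replicates 1 to 3 and at 57.3, 47.0 and 56.2 FPKM in iRFA replicates 1 to 3, so that the groups did not overlap (−0.43 ± 0.18 on the log2 scale, standard error of limma, adjusted p = 0.250). The p120 catenin (Ctnnd1), which stabilizes cadherins at the membrane, stood at 60.4 and 59.1 FPKM in untreated replicates 1 and 2 and at 19.1 to 22.0 FPKM in the other 4 libraries. Without untreated replicate 3, 5 passed as lower, and without untreated replicates 1 and 2, 0 did (median 0.04).
Of 9 other intermediate filament genes, 4 were tested, all 4 with a negative log2 fold change (median −0.71). The median was −0.34 without untreated replicate 1, −0.35 without untreated replicate 2 and −1.45 without untreated replicate 3, where all 4 passed as lower. It turned to 0.04 without untreated replicates 1 and 2, where 0 passed. Desmin (Des), the filament of muscle, stood at 27.8 and 25.6 FPKM in untreated replicates 1 and 2, 0.794 FPKM in the library labelled as untreated replicate 3 and 3.97 to 5.33 FPKM after iRFA. Peripherin (Prph), of peripheral neurons, and nestin (Nes), of progenitor cells, were lower without overlap, at log2 fold changes of −2.44 and −0.41 (standard errors 0.97 and 0.16). Skeletal muscle markers moved as Des did, summing to 196.5 and 246.8 FPKM in untreated replicates 1 and 2, 2.88 FPKM in the library labelled as untreated replicate 3, where 5 of 11 are listed at 0, and 36.5 to 60.9 FPKM after iRFA. Their most abundant members Acta1, Tnnt3 and Myh1 had log2 fold changes of 0.05, −0.53 and −1.16 (standard errors 1.79, 1.12 and 1.32), and the part of muscle was not tested.

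**Figure D5:**
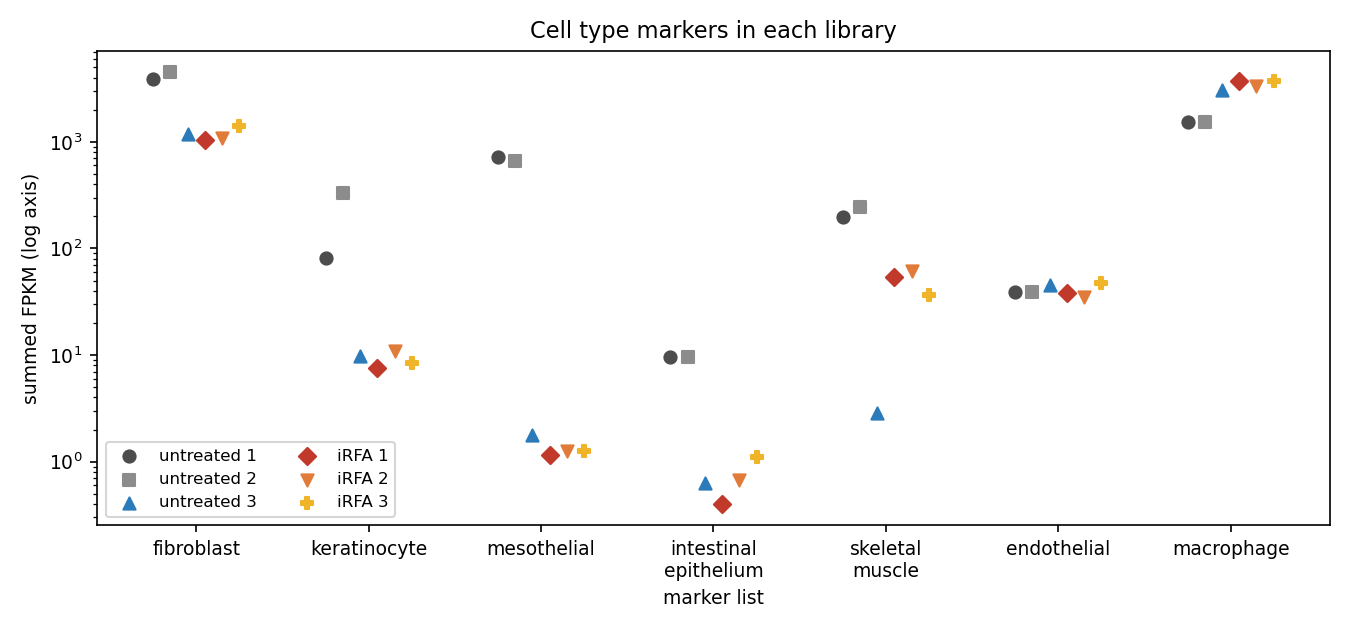
Summed FPKM (log axis) of the markers of 7 cell types, with 1 point per library. Mesothelial markers stood at 718.5 and 662.6 FPKM in untreated replicates 1 and 2 and at 1.16 to 1.76 FPKM in the other 4 libraries, while macrophage markers stood at 1531 to 3032 FPKM untreated and 3351 to 3735 FPKM after iRFA.

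Of 20 further transcription factors linked to EMT, 18 are in the files and 16 were tested, with log2 fold changes above 0 for 11 and below 0 for 5 (median 0.35, and 0.034 with no filter on low values). Fosl1, the AP-1 subunit FRA1, was at 2.76, 2.63 and 66.4 FPKM in untreated replicates 1 to 3 and at 65.1, 71.6 and 51.9 FPKM in iRFA replicates 1 to 3. Sox4, an HMG box factor, was at 44.2 ± 12.8 FPKM untreated and 26.5 ± 4.40 FPKM after iRFA, and Tcf3, which encodes the TWIST partner E2A, at 24.7 ± 14.0 and 36.5 ± 2.58 FPKM (SD, n = 3). Of the 16, 2 were higher without overlap, Hmga2, a chromatin protein that acts upstream of Snai1, and Tcf12, another partner of TWIST. Runx1 and Prrx2 were the 2 lower without overlap. These shares stand beside 11.4% and 10.5% of all genes, and all 4 genes are named after their values were seen. With untreated replicate 3 left out, 8 passed as higher and 5 as lower, and without untreated replicates 1 and 2 the median was −0.10 and 0 passed.
The 19 corepressors that SNAI, ZEB and TWIST factors recruit had 15 positive and 4 negative log2 fold changes (median 0.11). Chd4, the ATPase of the NuRD complex, was at 90.8 ± 15.5 FPKM untreated and 72.1 ± 1.21 FPKM after iRFA, Mta1 of the same complex at 35.9 ± 16.4 and 46.8 ± 3.33 FPKM, and the deacetylase Hdac1 at 33.6 ± 10.03 and 48.3 ± 0.524 FPKM without overlap (SD, n = 3). Without untreated replicate 3, 11 passed as higher and 1 as lower, and without untreated replicates 1 and 2 the median was −0.03 and 0 passed.
Of 15 genes of SNAI and TWIST protein turnover, 7 had a log2 fold change above 0 and 8 below. Their median of −0.02 turned positive under quantile normalization (0.02) and without iRFA replicate 2 (0.003). Leaving out untreated replicate 3, 6 passed as higher and 3 as lower (median −0.02), and without untreated replicates 1 and 2, 0 passed (median −0.04). The most abundant were Cops2, a subunit of the COP9 signalosome, at 29.0 ± 8.45 FPKM untreated and 41.7 ± 2.496 FPKM after iRFA, Gsk3a at 31.3 ± 0.525 and 28.4 ± 0.806 FPKM and the ubiquitin ligase subunit Fbxo11 at 26.5 ± 0.558 and 26.1 ± 0.850 FPKM (SD, n = 3).
Among 24 genes upstream in the TGF-beta branch, 10 had a log2 fold change above 0 and 14 below (median −0.19). The ligand Tgfb3 was at 121.5 ± 55.0 FPKM untreated and 157.7 ± 7.38 FPKM after iRFA, its receptor Tgfbr2 at 48.9 ± 3.12 and 49.3 ± 3.42 FPKM (SD, n = 3). Inhba, the activin A subunit, was at 6.67, 7.42 and 48.3 FPKM in untreated replicates 1 to 3 and at 45.5, 42.6 and 42.8 FPKM in iRFA replicates 1 to 3. With untreated replicate 3 left out, 4 passed as higher and 13 as lower, and without untreated replicates 1 and 2 the median was 0.01 and 0 passed.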

How the data were processed

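RNA-seq of 3 untreated and 3 iRFA tumors was used, and groups follow the titles of the samples. Per the labels, the authors ran FastQC, HISAT2 on GRCm38 and StringTie, with no versions given, and deposited FPKM values per gene. Names come from GENCODE release 21, which covers 32060 of 32110 identifiers. The 10 genes and the lists, which include known EMT pathway genes and cell type markers, were chosen with earlier results of these data known.

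Log2(FPKM + 1) was tested by limma 3.58.1 (R 4.3.3) for the 15560 genes whose mean FPKM reached 0.5. The variance trend was used without covariates, tests were two-sided, and p-values were adjusted over all these genes by Benjamini-Hochberg. The test was checked on simulated data. Lists are described by counts and medians, without a set test. Ratios within a library were compared by exact permutation in scipy 1.17.1 under Python 3.11.15, and matplotlib 3.10.9 drew the plots. Named genes are the 10 members, the 3 of highest mean FPKM in each list and the 3 of most similar profile, and others are said to be chosen after their values were seen. Alternatives changed the pseudocount (0.1), the filter, the scaling, the moderation, the replicate block and the libraries used. Depth was read only relative to untreated replicate 1, and precision from the spread between tumors.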

Additional observations from a re-analysis of the deposited data

How the results depend on the processing

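Over the 6 libraries 0 genes were higher and 0 lower, and at an unadjusted p under 0.05 there were 1236 and 1050. These counts stayed at 0 under a pseudocount of 0.1, no filter, a mean of at least 1 FPKM, 3 other scalings, no variance trend and no moderation. With each library left out in turn they ran from 0 to 5269 higher and from 0 to 4711 lower, and both upper values are those without untreated replicate 3. Without untreated replicates 1 and 2, 1 gene was higher and 0 lower. With the replicate number as a block, 0 were higher and 0 lower (646 and 510 at an unadjusted p under 0.05). Same-numbered libraries deviated from their group means with correlations of −0.094, −0.105 and −0.23. The untreated deviations mostly hold the split of untreated replicates 1 and 2 from replicate 3. These correlations therefore cannot settle whether the numbers pair the libraries.

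Of 160 values of the 10 EMT genes under 16 alternatives, 146 kept direction and side of the threshold, 8 passed it, all without untreated replicate 3, and 6 turned direction. Since no EMT gene passed over all 6 libraries, staying on that side says little, and the 146 include large changes in size. Without untreated replicates 1 and 2, Epcam went from −2.64 to −0.04, Snai2 from −1.28 to −0.20 and Snai1 from 1.39 to 0.32. Without untreated replicate 3, Cdh1 turned to −0.11, and it ran from −0.11 to 0.377 with each library left out in turn, the highest value being without untreated replicate 2. Without untreated replicates 1 and 2, Cdh2 turned to 0.071, Vim to −0.064, Zeb1 to −0.15, Twist1 to −0.42 and Twist2 to −0.11. The cause was not tested. Other scalings and the smaller pseudocount turned none of the 10. Epcam then ranged from −3.89 to −2.63 and Snai1 from 1.34 to 1.44. With 1 untreated library left, iRFA and differences between tumors cannot be told apart.

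Of the counts over all genes and the list medians, 310 values stayed within their limits and 26 moved beyond them, most often without untreated replicates 1 and 2. For a list median the limit was the SD of its library medians within groups, which includes the split of the untreated libraries. A median could thus turn direction and still count as staying. Without untreated replicates 1 and 2, cadherin-bound proteins went from −0.48 to 0.04 and other intermediate filament genes from −0.71 to 0.04 in this way. Filters and the pseudocount moved medians of lists that hold low genes. With no filter, other EMT transcription factors went from 0.35 to 0.034 and intestinal markers from −1.18 to −0.15. A pseudocount of 0.1 took epithelial regulators from −0.65 to −1.46, keratinocyte markers from −0.93 to −2.40 and intestinal markers to −2.23, and a mean of at least 1 FPKM took the epithelial regulators to −1.69. The median of the 10 EMT genes was 0.24, 0.092 without untreated replicate 1, 0.46 without untreated replicate 3 and −0.05 without untreated replicates 1 and 2. Fibroblast markers went from −0.91 to −1.60 without untreated replicate 3 and to 0.13 without untreated replicates 1 and 2.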
